A study of Mus musculus with 71 samples.

Results

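The astrocyte genes were a set of 38 genes named by symbol, of 37681 genes listed in each of 6 tables of gene expression, and all 38 had a row in all 6 tables and passed the filter on low values in all 6 comparisons of cocaine with saline. The list joins markers of the cell type with genes that astrocytes express at high levels, and the rule picks them by symbol alone. The list was chosen with earlier results of these data known, so no test of the set was run. RNA-seq was carried out on total RNA from micro-punches of the nucleus accumbens (NAc), the ventral tegmental area (VTA) and the prefrontal cortex (PFC) of wild type C57BL/6 mice (C57BL/6J in the study's methods). Adult mice had self-administered intravenous cocaine or saline in daily sessions after operant training for food, which the saline controls had also received, and tissue was collected after 1 or 28 days of abstinence. Each of the 12 groups of region, treatment and time held 6 libraries, except saline mice in the VTA at 28 days, which held 5, for 71 libraries in all. The study used male and female mice, and the labels do not give the sex of the mouse behind a library, whether regions came from the same mice, or whether a library pooled animals. Libraries of 28 days are numbered here by the columns of the tables, which do not match the numbers in the sample titles.

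Astrocytes are the glial cells that clear glutamate and GABA from synapses, turn glutamate into glutamine, buffer potassium and water, and join into networks through gap junctions. They also store glycogen, release signalling proteins and wrap blood vessels with endfeet, and their gene expression differs between brain regions. In the reward circuit, glutamate uptake by astrocytes is a known target of chronic cocaine. The libraries were made from bulk tissue, in which fewer astrocytes and less RNA per astrocyte cannot be told apart.

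Between 20971967 and 49700932 reads per library lay on genes, with a median of 28682156. Levels are given throughout as RPKM, the reads per kilobase of gene scaled to the reads on genes of the library, without further scaling. Fold changes and tests come from edgeR or limma fits over all genes, with p-values adjusted by the Benjamini-Hochberg method, and a gene was called at an adjusted p under 0.05. Markers of other cells set a few libraries apart. The summed level of striatal neuron genes reached 1398 RPKM in 1 saline library of the PFC at 28 days (number 4), against at most 131 in the cocaine libraries. Endothelial, choroid plexus or reactive astrocyte genes were high in cocaine libraries 3 and 6 of the VTA at 1 day and in saline libraries 4 and 5 of the VTA at 28 days. Counts in the cocaine comparisons of these 3 tables are also given without those libraries, as are the values of named genes that moved by over 1.5 times. In the NAc, cortical neuron genes varied in both groups at both times. At 1 day they ran from 329 to 714 RPKM in cocaine and 347 to 646 in saline libraries. At 28 days they ran from 440.1 to 693 RPKM in cocaine and 449 to 738 in saline libraries. Their mean on the log2 scale ran from 2.52 to 5.78 in cocaine and 2.42 to 5.58 in saline libraries at 1 day. It ran from 2.48 to 5.57 in cocaine and 3.36 to 5.62 in saline libraries at 28 days. No NAc library was set apart for this spread, and its part in the NAc results was not tested.

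The defining markers were present in every library. In bulk brain tissue their presence does not test whether the label fits. Glul, the glutamine synthetase that turns glutamate into glutamine, and Aldoc, the brain aldolase of glycolysis, had the highest saline means of the 38 genes in all 3 regions at 28 days. Glul lay at 466 ± 40.2 RPKM (SD, n = 6) in the NAc, 674 ± 76.0 (n = 5) in the VTA and 556 ± 42.7 (n = 6) in the PFC. The 5 genes with the highest saline means held 58.9%, 50.5% and 60.6% of the summed level of the set in the NAc, VTA and PFC at 28 days. The lowest saline mean at 28 days belonged to Chrdl1, a secreted antagonist of bone morphogenetic proteins, in the NAc (1.97 RPKM) and the VTA (0.535 RPKM), and to Agt, angiotensinogen, in the PFC (2.13 RPKM).

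The first comparison asked how the set differs between the 3 regions in saline mice at 28 days. Astrocyte genes were higher in the VTA than in the other regions, with a small group that ran the other way. So were genes of oligodendrocytes and their precursors. Oligodendrocyte genes summed to 4150.4 to 8023 RPKM in the VTA, 1641 to 1906 in the NAc and 1095 to 2606 in the PFC. Precursor genes summed to 146 to 214, 73.6 to 111 and 68.2 to 96.6 RPKM in the same order. Microglia genes overlapped, at 288 to 543, 295 to 355 and 251 to 297 RPKM. Of the 38 genes, 30 were called higher and 4 lower in the VTA than in the PFC, where 63% of 17679 genes tested were called (33.9% higher in the VTA and 29.2% higher in the PFC). Between the NAc and the VTA, 31 were called higher in the VTA and 6 higher in the NAc, against 67.1% of all genes called (35.3% higher in the VTA and 31.7% higher in the NAc). The median log2 fold change of the set was 0.85 for the VTA over the PFC, where that of all genes was 0.043, and -0.79 for the NAc over the VTA, where that of all genes was -0.033. All libraries of the VTA lay above all libraries of the NAc and the PFC for 20 of the 38 genes at 1 day and for 22 at 28 days, with 19 genes in both counts. That compares cocaine and saline libraries alike, and it held for 11% and 11.6% of 17677 genes at 1 and 28 days. All VTA libraries lay below the others for 2 and 3 of the 38 genes, beside 6.06% and 6.56% of all genes.

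Agt, the precursor of the angiotensin peptides (mm9 chr8:127080434-127093606, minus strand), had the widest gap. The 5 saline libraries of the VTA held 148, 153, 172, 173 and 203 RPKM, the 6 of the NAc held 2.32, 2.84 and 6.38 (lowest, median and highest) and the 6 of the PFC held 1.49, 2.10 and 2.96. No VTA library came near the range of the other regions. Agt was 72.8-fold higher in the VTA than in the PFC (log2 fold change 6.19 ± 0.30, adjusted p = 1.81e-18) and 41.3-fold higher than in the NAc (log2 fold change -5.37 ± 0.28, adjusted p = 2.04e-17 for the NAc over the VTA).

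Gfap, the intermediate filament of astrocytes (chr11:102748650-102762226, minus strand), followed. Its saline libraries at 28 days held 125, 251, 359, 365 and 514 RPKM in the VTA, 9.17, 13.3 and 33.4 in the NAc and 22.4, 37.5 and 61.6 in the PFC. The VTA libraries stood above both other regions, and the spread within the VTA was wide. Gfap was 7.66-fold higher in the VTA than in the PFC (log2 fold change 2.94 ± 0.37, adjusted p = 2.73e-08), and it was also lower in the NAc than in the PFC (log2 fold change -1.30 ± 0.35, adjusted p = 0.00244). The gene overlaps Gm17536 on the opposite strand, and the strand used in counting is not given in the sources used here. Reads in the stretch that the 2 genes share can therefore not be told apart. An overlap on the opposite strand is also found for S100b, Aldh1l1, Ttyh1, Slc1a2, Glul, Slc7a10, Cldn10, Hes5, Dio2, Plcd4 and Pla2g7, which makes 12 of the 38. Glul also overlaps 1 gene on its own strand.

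Transmitter handling split in opposite directions. Slc6a11, the GABA transporter GAT3 (chr6:114081235-114199880, plus strand), lay at 269.9 ± 51.6 RPKM in the VTA and 43.0 ± 2.50 in the PFC (log2 fold change 2.52 ± 0.17, adjusted p = 1.52e-14). The 2 glutamate transporters ran the other way. Slc1a2, which encodes GLT-1 (chr2:102498816-102630941, plus strand), held 85.0, 113, 129, 129 and 144 RPKM in the VTA, 188, 209.7 and 230.0 in the NAc and 199, 216 and 247 in the PFC. The VTA values lay below all values of both other regions. The difference to the PFC was -0.996 ± 0.10 on the log2 scale (adjusted p = 1.40e-10), and that of Slc1a3, which encodes GLAST, was -0.81 ± 0.076 (adjusted p = 4.09e-11). Against the NAc, Slc1a2 and Slc1a3 differed by 0.91 ± 0.10 and 0.84 ± 0.076, higher in the NAc. Slc7a10, a carrier of small neutral amino acids, and Slc25a18, a mitochondrial glutamate carrier, were higher in the VTA than in the PFC, by 1.06 ± 0.12 and 0.85 ± 0.22. Glul was not called between the VTA and the PFC, at 0.15 ± 0.071 (adjusted p = 0.0727), though its groups did not overlap. It was called higher in the VTA than in the NAc (-0.42 ± 0.071 for the NAc over the VTA, edgeR adjusted p = 3.91e-06).

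Water and ion genes and junction genes were higher in the VTA. Aqp4, the water channel of endfeet, lay at 68.9 ± 29.2 RPKM in the VTA and 13.3 ± 1.89 in the PFC (log2 fold change 2.24 ± 0.22, adjusted p = 9.51e-11), and 1 VTA library held 20.9 RPKM where the other 4 held at least 67.0. Slc4a4, a sodium bicarbonate cotransporter, differed by 1.61 ± 0.13, and Mlc1, an endfoot membrane protein, by 0.45 ± 0.089. Ttyh1, of the tweety family of chloride channels, lay at 0.051 ± 0.052 (adjusted p = 0.393). The gap junction genes Gja1 (connexin 43) and Gjb6 (connexin 30) differed by 0.72 ± 0.10 and 1.12 ± 0.14, and the claudin Cldn10 by 0.59 ± 0.086.

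Among signalling genes, Itih3, a heavy chain of the inter-alpha-trypsin inhibitor, was higher in the VTA than in the PFC by 2.69 ± 0.22, Ednrb, an endothelin receptor, by 1.36 ± 0.14, Sdc4, a heparan sulfate proteoglycan, by 1.13 ± 0.10, and Ntsr2, a neurotensin receptor, by 1.15 ± 0.091. Sox9 and Hes5, transcription factors of glial fate and of Notch signalling, were not called between these regions, at 0.091 ± 0.10 and -0.16 ± 0.18. Chrdl1 (chrX:139720217-139828805, minus strand) was lowest in the VTA. Its saline libraries held 0.240, 0.382, 0.405, 0.713 and 0.934 RPKM there, 1.57, 2.04 and 2.31 in the NAc and 2.77, 3.68 and 4.33 in the PFC, so that the 3 regions did not overlap. The difference between the VTA and the PFC was -2.93 ± 0.24 (adjusted p = 1.13e-12), and between the NAc and the VTA 1.99 ± 0.23. Dio2, the deiodinase that activates thyroid hormone, differed by -1.81 ± 0.15 between the VTA and the PFC, at 2.91 ± 0.822 RPKM against 9.30 ± 1.30. S100b, a calcium-binding protein, had 254 ± 53.7 RPKM in the VTA and 54.8 ± 9.84 in the PFC (2.08 ± 0.14). The metallothioneins Mt1 and Mt2, which bind zinc and copper, were higher in the VTA by 0.83 ± 0.12 and 0.96 ± 0.14.

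The metabolic genes were also higher in the VTA, with Dio2 as the exception. Fabp7, a fatty acid binding protein, had 25.4 ± 4.46 RPKM in the VTA and 9.88 ± 1.69 in the PFC (1.23 ± 0.20), Plcd4, a phospholipase C, had 6.67 ± 0.911 and 2.51 ± 0.317 (1.28 ± 0.095), and Pla2g7, a phospholipase, had 116 ± 19.2 and 47.0 ± 4.26 (1.17 ± 0.10). The acyl-CoA synthetase Acsbg1 differed by 0.85 ± 0.081, Aldoc by 0.76 ± 0.080, Aldh1l1 by 0.55 ± 0.088, the glycogen-targeting subunit Ppp1r3c by 0.59 ± 0.088 and Cbs, cystathionine beta-synthase, by 0.37 ± 0.11. Among the remaining genes, the zinc transporter Slc39a12 differed by 1.20 ± 0.089, the growth factor receptor Fgfr3 by 0.81 ± 0.091, F3, tissue factor, by 0.97 ± 0.10, and the bone morphogenetic protein receptor Bmpr1b by 0.35 ± 0.13. All of these were called by edgeR, with the highest adjusted p, 0.0196, for Bmpr1b.

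**Figure D1:**
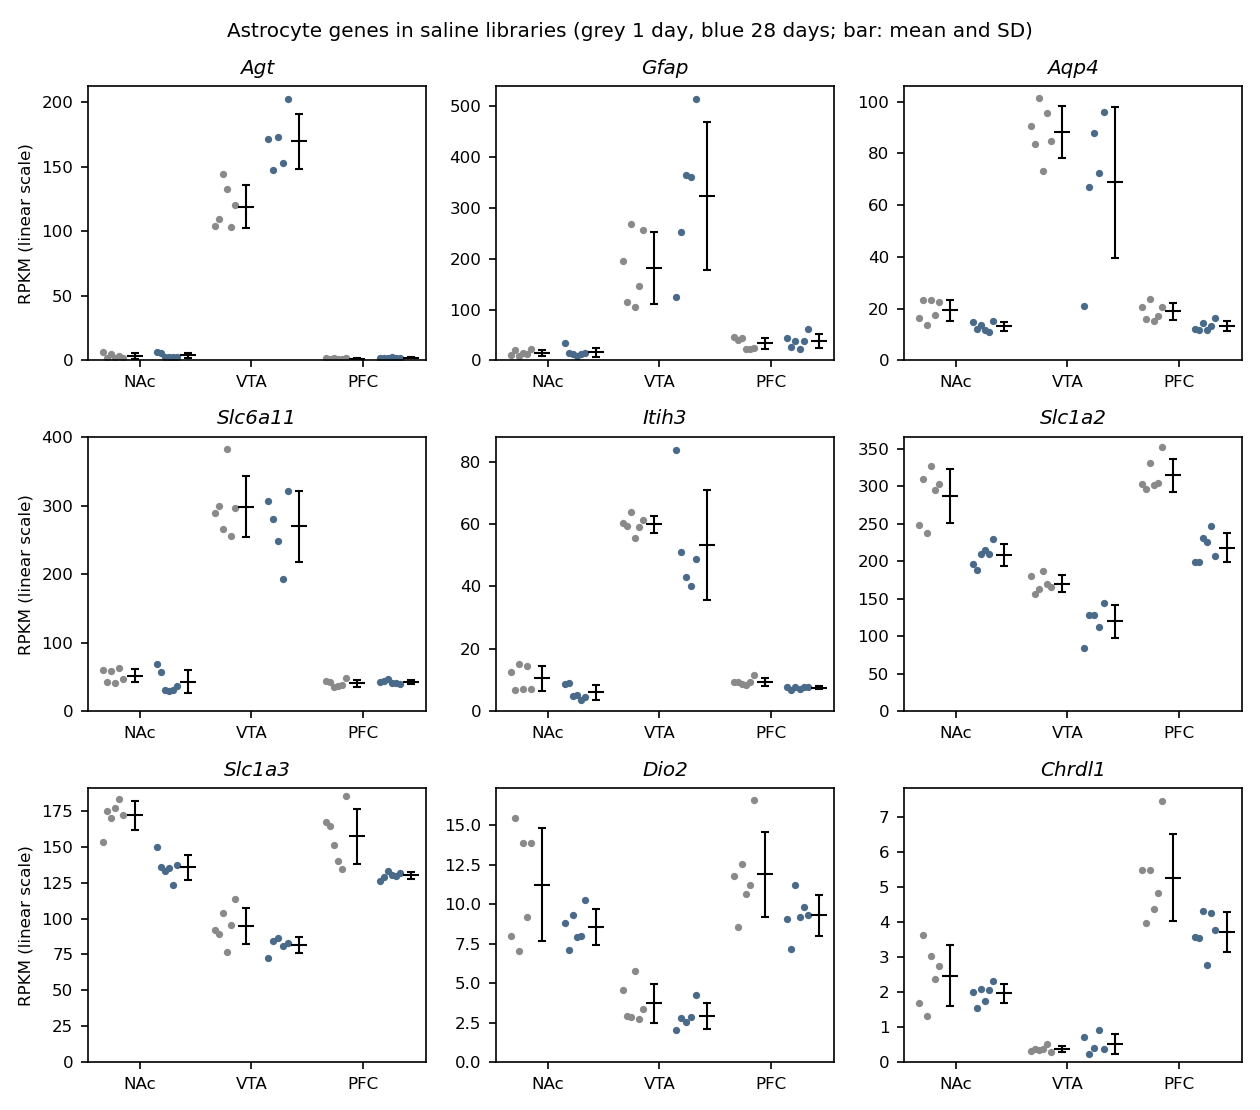
RPKM (linear scale) of 9 astrocyte genes in saline libraries of the NAc, VTA and PFC at 1 day (grey) and 28 days (blue), 1 point per library, with the mean and SD beside the points. Agt, Gfap, Aqp4, Slc6a11 and Itih3 are highest in the VTA, and Slc1a2, Slc1a3, Dio2 and Chrdl1 are lowest there, at both times.

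The NAc and the PFC were closer to each other. Of the 38 genes, 8 were called higher in the NAc and 6 higher in the PFC, where 46.5% of all genes were called (24.5% higher in the NAc and 22% higher in the PFC), and the median of the set was -0.010, beside 0.035 over all genes. Slc4a4 was higher in the NAc (31.7 ± 2.56 RPKM against 15.1 ± 2.56, log2 fold change 1.05 ± 0.12, adjusted p = 1.69e-08), as were Agt (0.82 ± 0.27), Hes5 (0.72 ± 0.17), Ednrb (0.41 ± 0.13) and Mt1 (0.40 ± 0.12). Leaving out saline library 1 or 2 of the NAc took Agt over the threshold, to an edgeR adjusted p = 0.0514 and 0.0612. Gjb6 was lower in the NAc, with 7.88, 9.59 and 11.4 RPKM there and 15.2, 19.7 and 22.2 in the PFC, and the groups did not overlap (log2 fold change -1.05 ± 0.14, adjusted p = 1.57e-07). Slc25a18 (-1.24 ± 0.21), Chrdl1 (-0.94 ± 0.20) and Aldh1l1 (-0.29 ± 0.085), the folate enzyme used as a general astrocyte marker, were also lower. Gja1, Aqp4, Sox9 and Slc1a3 were not called, at -0.021 ± 0.10, -0.045 ± 0.20, 0.00054 ± 0.10 and 0.039 ± 0.071.

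**Figure D2:**
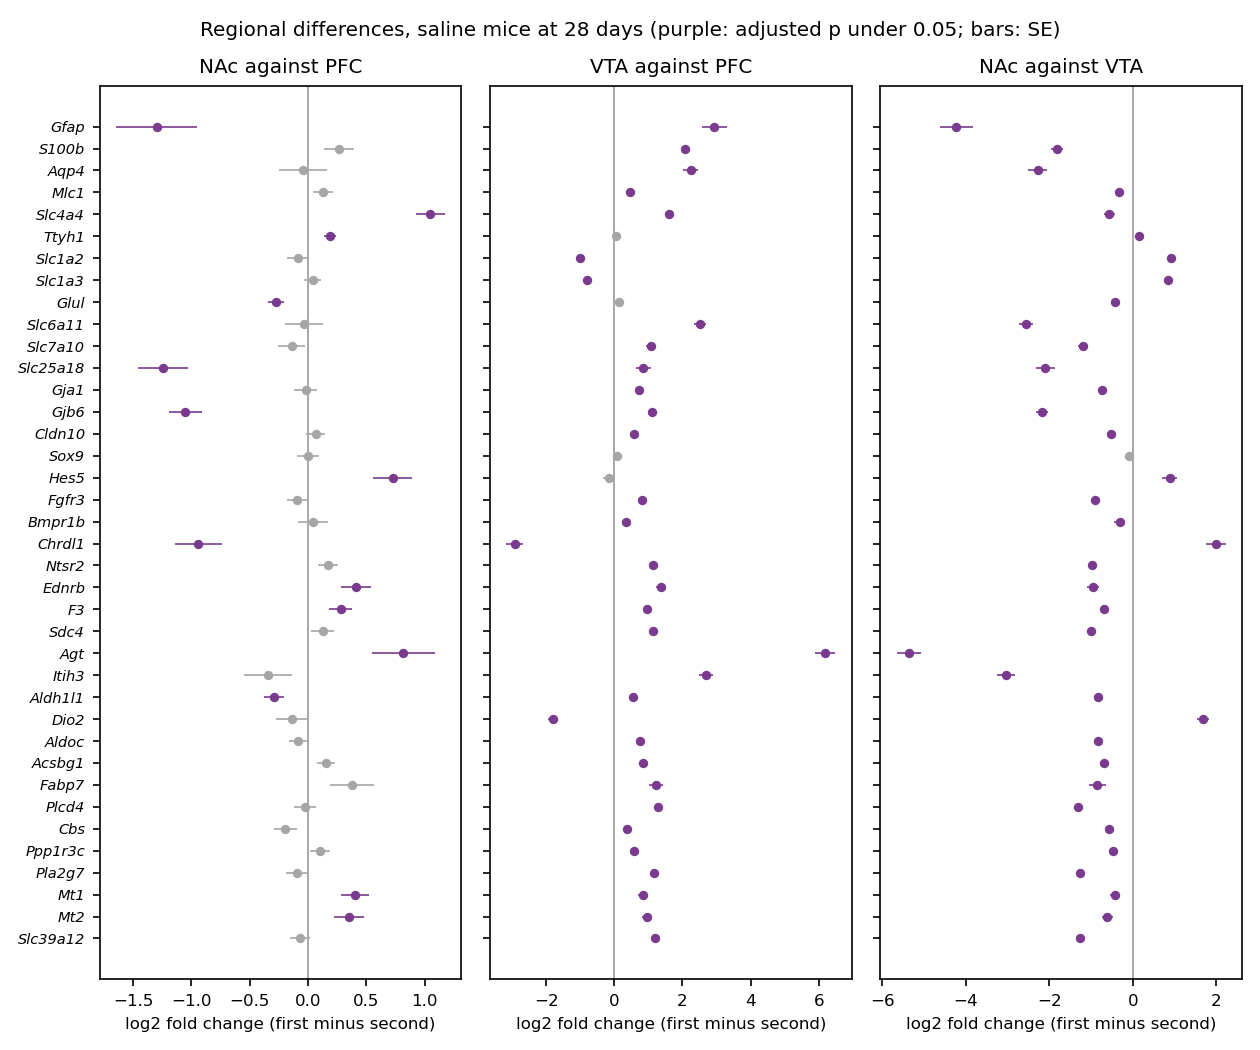
log2 fold change of each of the 38 astrocyte genes between regions in saline mice at 28 days (first region minus second; bars are SE), with genes at an adjusted p under 0.05 in purple. In the VTA against the PFC, 30 genes lie above 0 and 4 below 0 among those called; in the NAc against the PFC, 14 are called.

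The same comparison in the 1-day libraries, with reads recovered from the RPKM of the VTA and PFC, gave by edgeR 30 genes higher and 4 lower in the VTA than in the PFC, of which 29 and 4 were called in the same direction at 28 days. For the NAc against the VTA, 30 genes were higher in the VTA and 5 higher in the NAc at both times, and no gene was called in opposite directions at the 2 times in any pair of regions. Of the 14 genes called between the NAc and the PFC at 28 days, 12 were called in the same direction at 1 day. The share of all 16971 genes called at 1 day was 63.7% for the VTA against the PFC, 64.7% for the NAc against the VTA and 40.1% for the NAc against the PFC. Some differences were of another size at 1 day. Between the NAc and the PFC, Slc25a18 differed by -0.65 and Agt by 1.33 at 1 day, and between the VTA and the PFC, Cbs differed by 0.65 and Bmpr1b, no longer called, by 0.23 (edgeR adjusted p = 0.0535). Without the 3 libraries of 28 days whose markers stood apart, 32 genes were called between the VTA and the PFC, 36 between the NAc and the VTA and 16 between the NAc and the PFC, beside 56.1%, 61.2% and 48.3% of all 17875 genes.

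The second comparison asked how cocaine differed from saline in each region and at each time. None of the 38 genes was called in the 6 tables by edgeR on counts or by limma on RPKM. The share of all genes called was 0.0126% in the NAc at 1 day, 0.0665% in the VTA at 1 day, 0.00693% in the PFC at 1 day and 0% in each region at 28 days. Other tools called members in the VTA at 1 day: limma without the variance trend called 1, and edgeR and DESeq2 on reads recovered from RPKM called 2 and 8. These 3 fits called 0.186%, 0.341% and 4.31% of all genes. At an unadjusted p under 0.05, 4, 14 and 3 members passed in the NAc, VTA and PFC at 1 day, and 3, 5 and 4 at 28 days. The share of all genes at that limit was 4.01%, 15.7% and 3.78% at 1 day, and 6.76%, 11.5% and 5.66% at 28 days. DESeq2 on counts, used as a second tool in the 4 tables of counts, also called none. The 6 tables are treated in turn.

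**Figure D3:**
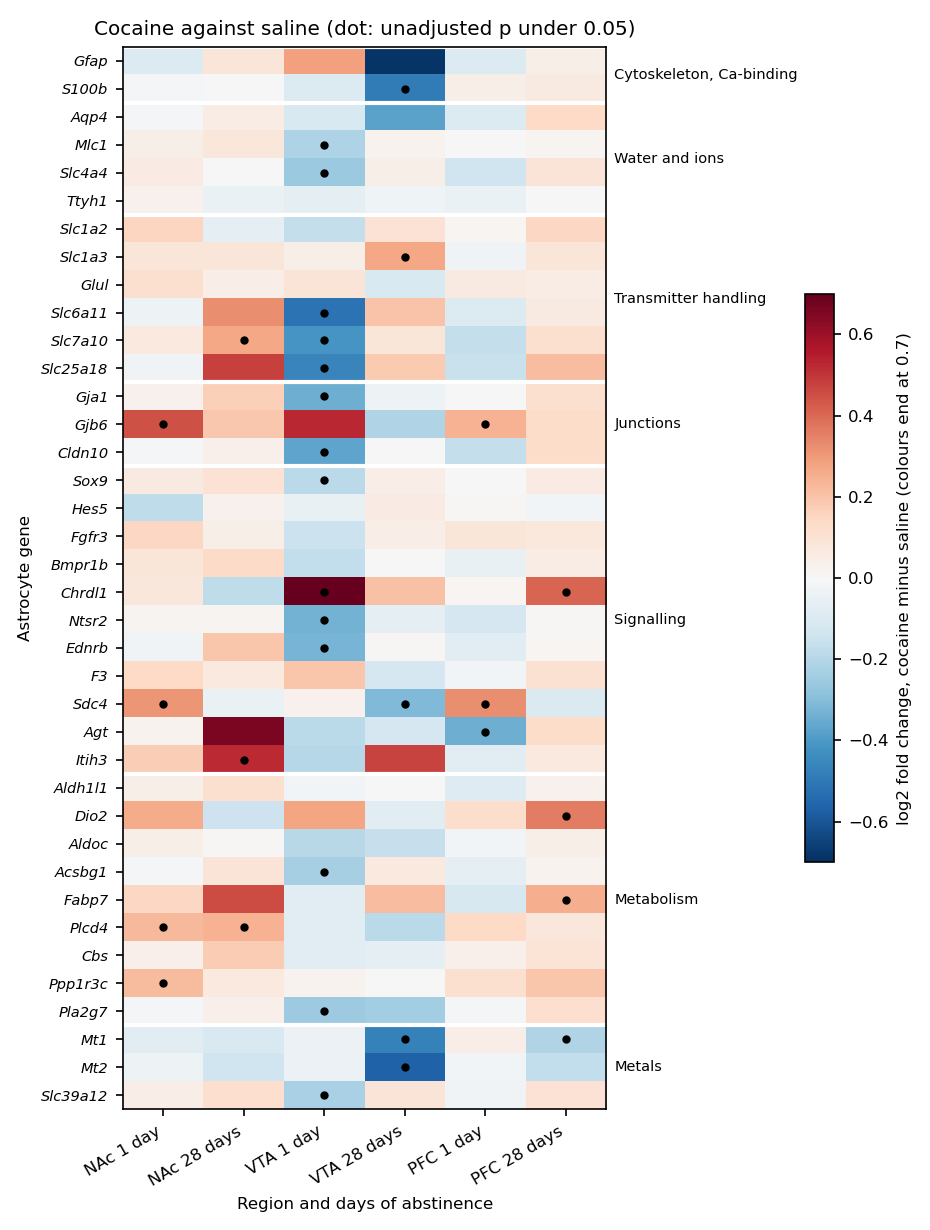
log2 fold change of cocaine minus saline (colour, ending at 0.7 in either direction) for the 38 astrocyte genes, grouped by role, in the 6 tables. Black dots mark an unadjusted p under 0.05: 14 genes in the VTA at 1 day, 13 of them below 0, and 3 to 5 genes in each other table.

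In the VTA at 1 day of abstinence, astrocyte genes leaned towards lower levels after cocaine. Of the 38 genes, 13 had lower values at an unadjusted p under 0.05 (34.2%, beside 4.57% of 15042 genes tested) and 1 had higher values (2.63%, beside 11.2%). At an adjusted p under 0.25, 10 members passed (26.3%, beside 8.7%). The log2 fold change was below 0 for 29 of 38 genes, with a median of -0.13. Of all genes, 58.9% were above 0, with a median of 0.030. These counts come from limma on log2(RPKM + 0.1), and fold changes in the VTA and PFC at 1 day are on that scale, which understates the change of low genes. The lean of all genes towards higher values was smaller with edgeR on reads recovered from RPKM. At an unadjusted p under 0.05 it gave 7.4% lower and 9.52% higher of 16132 genes. Of the 38 genes, 15 were then lower and 2 higher. The medians were -0.16 for the set and -0.0081 for all genes.

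Connexin 43, encoded by Gja1 (chr10:56097106-56110225, plus strand), had 69.9, 79.7 and 97.9 RPKM (lowest, median and highest) after cocaine and 96.5, 102 and 113 after saline. The cocaine libraries lay below the saline mean in all 6 cases, and the groups met only where the highest cocaine library passed the lowest saline one. Gja1 had a log2 fold change -0.34 ± 0.072 (SE), adjusted p = 0.0766. Slc6a11, GAT3, had 163, 206 and 267 RPKM after cocaine and 257, 293 and 383 after saline. Again every cocaine library was below the saline mean, with a narrow overlap (log2 fold change -0.52 ± 0.13 (SE), adjusted p = 0.112). Slc25a18 had 25.9, 34.2 and 42.6 RPKM after cocaine and 39.5, 45.5 and 58.4 after saline (log2 fold change -0.46 ± 0.13 (SE), adjusted p = 0.136).

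Cldn10 and Ntsr2 had the same form. Cldn10 had 12.8, 17.0 and 18.7 RPKM after cocaine and 18.0, 22.6 and 25.9 after saline (log2 fold change -0.37 ± 0.11 (SE), adjusted p = 0.146), and Ntsr2 had 67.7, 82.6 and 95.7 and 91.3, 101 and 123 (log2 fold change -0.33 ± 0.10 (SE), adjusted p = 0.171). All 6 cocaine libraries of both genes were below the saline mean, and the groups overlapped. Pla2g7, a phospholipase (-0.26 ± 0.083), Slc4a4 (-0.26 ± 0.087), Ednrb (-0.32 ± 0.11), Slc7a10 (-0.41 ± 0.14), Sox9 (-0.19 ± 0.075), Slc39a12, a zinc transporter (-0.23 ± 0.092), Acsbg1, an acyl-CoA synthetase (-0.23 ± 0.10), and Mlc1 (-0.21 ± 0.094) completed the 13 genes with lower values. By role, lower values at that limit were found for 3 of 6 genes of transmitter handling, 2 of 3 of junctions, 2 of 4 of water and ion transport, 3 of 11 of signalling, 2 of 9 of metabolism, 1 of 3 of metal handling and 0 of 2 of structure.

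Chrdl1 was the 1 member with higher values at an unadjusted p under 0.05. Its libraries held 0.614, 0.955 and 1.29 RPKM after cocaine and 0.292, 0.370 and 0.521 after saline, and the groups did not overlap, as for 1.67% of all genes tested (log2 fold change 1.12 ± 0.19 (SE), adjusted p = 0.0538). The level was low: at most 1.29 RPKM in every VTA library of this table. In saline mice Chrdl1 was highest in the PFC and lowest in the VTA, and the cortical neuron genes were also higher in the cocaine libraries, with a summed level of 46.8 to 112 RPKM against 27.9 to 58.0 and 4 of 4 tested genes higher at an unadjusted p under 0.05. Their part in the result for Chrdl1 was not tested.

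The call of these genes depended on the tool. Whole reads were recovered from the RPKM values for all 23806 genes with reads in this table, within 0.01 of a read. On those reads edgeR called 55 of 16132 genes (0.341%), among them Chrdl1 (adjusted p = 0.0387) and Gja1 (adjusted p = 0.0498). DESeq2 called 695 genes (4.31%), with 8 members among them: Chrdl1 higher, and Gja1, Slc6a11, Slc25a18, Ntsr2, Cldn10, Sox9 and Pla2g7 lower after cocaine. Among the defining markers, Gfap lay at 0.29 ± 0.29, Aqp4 at -0.11 ± 0.12, Aldh1l1 at -0.020 ± 0.10 and Slc1a2 at -0.17 ± 0.080, none of them called (adjusted p from 0.333 to 0.954). Without cocaine libraries 3 and 6 they lay at 0.11, 0.045, -0.052 and -0.10.

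Markers of other cell types also differed in the same table. Of 14 microglia genes, 11 had lower values after cocaine at an unadjusted p under 0.05, with a summed level of 185 to 279 RPKM in cocaine and 271 to 392 in saline libraries. Of 7 tested genes of midbrain dopamine neurons, 4 had lower values (424 to 1032 against 664 to 1691 RPKM), and of 12 oligodendrocyte genes 2 (3444 to 5193 against 4085 to 6949.8). Of 10 endothelial genes, 3 had higher values (153 to 305 against 145 to 206 RPKM), and of 16 glucocorticoid-induced genes 12 (195 to 477 against 158 to 253). No gene of these lists was at 0 in all libraries of the table. The part of these differences in the values of the astrocyte genes was not tested. Without cocaine libraries 3 and 6, 10 astrocyte genes had lower values and 1 had higher values at an unadjusted p under 0.05, beside 3.99% lower and 9.95% higher of 14930 genes, and the median was -0.15. The counts of lower values were then 14 of 14 microglia, 1 of 7 midbrain dopamine neuron and 2 of 12 oligodendrocyte genes. The counts of higher values were 0 of 10 endothelial, 2 of 4 cortical neuron and 7 of 16 glucocorticoid-induced genes. Gja1 lay at -0.35, Slc6a11 at -0.45 Chrdl1 at 1.03, Slc4a4 at -0.17 and Slc39a12 at -0.14 without both libraries.

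**Figure D4:**
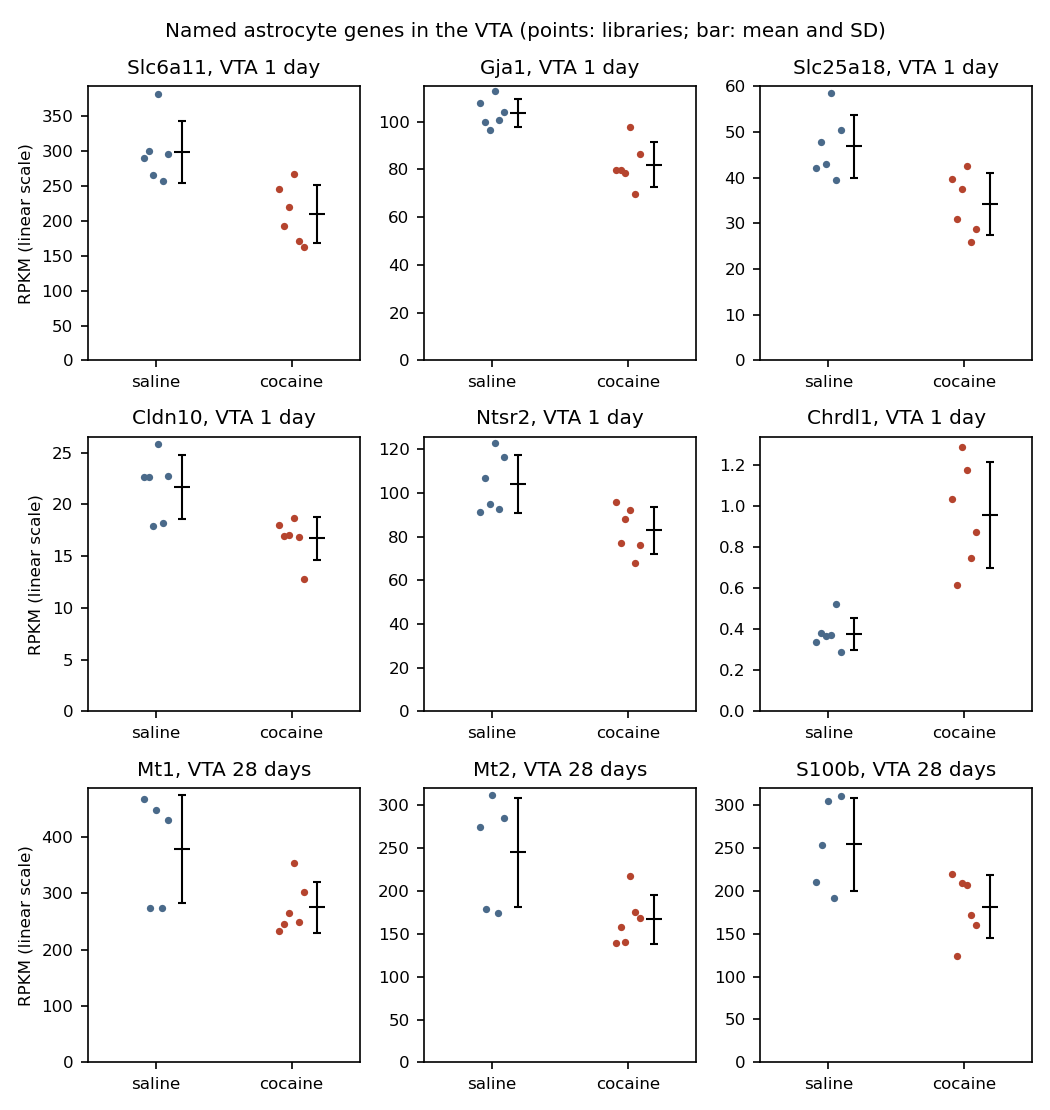
RPKM (linear scale, from 0) of 9 named astrocyte genes in the VTA, 1 point per library, with the mean and SD beside the points; blue is saline and red is cocaine. Chrdl1 at 1 day is the panel without overlap between the groups; Slc6a11, Gja1, Slc25a18, Cldn10 and Ntsr2 at 1 day and Mt1, Mt2 and S100b at 28 days have all 6 cocaine libraries below the saline mean.

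In the VTA at 28 days of abstinence, 4 members had lower and 1 higher values after cocaine at an unadjusted p under 0.05 (10.5% and 2.63%, beside 6.39% and 5.08% of 16937 genes). The median of the set was -0.0018, and that of all genes -0.030. The 2 metallothioneins were among the 4. Mt2 held 140.0, 164 and 218 RPKM after cocaine, and 175, 179.6, 275, 285 and 312 in the 5 saline libraries (log2 fold change -0.57 ± 0.17 (SE), adjusted p = 0.389). Mt1 held 233, 257 and 353 RPKM after cocaine, and 275, 275, 429, 447 and 467 after saline (log2 fold change -0.47 ± 0.17 (SE), adjusted p = 0.394). For both genes 3 saline libraries stood above every cocaine library, and the other 2 lay within the cocaine range.

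Mt1 and Mt2 are neighbours on chromosome 8 of mm9, Mt2 at chr8:96696518-96697467 and Mt1 at chr8:96702989-96704225, both on the plus strand and 5521 bases apart. They encode closely related proteins, and how the counting treated reads that match both genes is not given in the sources used here. Metallothionein genes are known to respond to metals through the factor MTF1, which binds metal response elements, and to glucocorticoids. The stretches from 250 bases before to 30 bases after the start sites are shown because both genes had the same pattern here. They are RefSeq promoters of GRCm38.p6 found once each, letter for letter, in mm9 at chr8:96696268-96696547 and chr8:96702739-96703018, and capitals mark the core TGCACNC or TGCGCNC on either strand.
Mt2: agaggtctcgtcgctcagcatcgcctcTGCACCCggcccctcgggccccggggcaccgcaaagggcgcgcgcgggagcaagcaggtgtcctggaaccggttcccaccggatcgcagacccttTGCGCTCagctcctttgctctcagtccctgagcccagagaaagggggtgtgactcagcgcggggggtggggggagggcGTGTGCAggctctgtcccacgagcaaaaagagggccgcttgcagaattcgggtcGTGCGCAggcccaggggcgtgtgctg
Mt1: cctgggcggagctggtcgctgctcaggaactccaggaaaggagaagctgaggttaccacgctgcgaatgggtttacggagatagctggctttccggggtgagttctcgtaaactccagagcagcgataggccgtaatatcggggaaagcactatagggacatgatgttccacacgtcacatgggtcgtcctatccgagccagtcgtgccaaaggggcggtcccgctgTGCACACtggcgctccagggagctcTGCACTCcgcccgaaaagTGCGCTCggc

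The Mt2 stretch holds 4 cores and the Mt1 stretch 3. Of 32851 RefSeq promoters of 300 bases, 25.7% hold at least 1 core, 1.97% at least 3 and 0.517% at least 4. Among the 35 members with an entry in the promoter table, 12 hold at least 1 core, with 2 in Slc6a11, Slc7a10 and Ednrb. For a member with several promoters the highest count was taken, here and for the half-site below, whereas the shares are per promoter. The glucocorticoid receptor half-site AGAACA, searched on both strands, is in the promoters of 4 members (Ednrb, Pla2g7, Slc1a3 and Ttyh1) and in 19.0% of all promoters. The letters were not found in the promoters of Mt1 and Mt2. A match is a description of these windows.

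S100b held 124, 189 and 219 RPKM after cocaine and 191, 210.0, 253, 304 and 310.1 after saline, with 6 of 6 cocaine libraries below the saline mean and overlapping ranges (log2 fold change -0.49 ± 0.17 (SE), adjusted p = 0.394). Sdc4 held 26.9, 34.5 and 40.5 RPKM after cocaine and 35.6, 37.8, 38.4, 39.7 and 59.4 after saline (log2 fold change -0.31 ± 0.14 (SE), adjusted p = 0.433), and its highest saline value came from library 5. Without saline libraries 4 and 5, Sdc4 lay at -0.15. Slc1a3 held 78.6, 96.3 and 126 RPKM after cocaine and 72.6, 80.7, 83.2, 84.3 and 86.6 after saline, higher than the saline mean in 5 of 6 cocaine libraries (log2 fold change 0.27 ± 0.11 (SE), adjusted p = 0.411). Gfap lay at -0.69 ± 0.43, with a wide spread, from 60.9 to 417 RPKM after cocaine and from 125 to 514 after saline (adjusted p = 0.513). Aqp4 lay at -0.38 ± 0.32, Slc1a2 at 0.10 ± 0.12 and Gja1 at -0.036 ± 0.13. Without saline libraries 4 and 5, Gfap lay at -0.31, Aqp4 at -0.15, Slc1a2 at 0.17 and Gja1 at 0.092.

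Markers of other cells also had lower values after cocaine in this table. The count was 5 of 14 microglia genes (201 to 322 against 288 to 543 RPKM), 5 of 10 endothelial genes (163 to 240.3 against 192 to 393) and 3 of 12 oligodendrocyte genes (2913 to 5182 against 4150.4 to 8023) at an unadjusted p under 0.05. Of 16 glucocorticoid-induced genes, 3 had lower values (172 to 227 against 183 to 322 RPKM), with a median log2 fold change of -0.33. No gene of the microglia, endothelial and oligodendrocyte lists was at 0 in all libraries, and the part of the 4 lists in the astrocyte values, Mt1 and Mt2 included, was not tested. Without saline libraries 4 and 5, 3 astrocyte genes had lower and 0 higher values at an unadjusted p under 0.05, beside 3.48% lower and 3.76% higher of 17161 genes, and the median was 0.075. Mt2 then lay at -0.62 and Mt1 at -0.54 on the log2 scale. Lower values were then found for 0 of 14 microglia, 1 of 10 endothelial, 1 of 12 oligodendrocyte and 1 of 16 glucocorticoid-induced genes, the last with a median of 0.048. Without cocaine library 2, 3 members passed, beside 6.63% of all genes.

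In the NAc at 1 day of abstinence, 4 members had higher values after cocaine and 0 lower values at an unadjusted p under 0.05 (10.5% higher, beside 2.76% higher and 1.25% lower of 15878 genes). Sdc4 (chr2:164249747-164269387, minus strand) held 17.5, 20.4 and 25.0 RPKM after cocaine and 15.1, 17.2 and 18.3 after saline, with 6 of 6 cocaine libraries above the saline mean (log2 fold change 0.31 ± 0.083 (SE), adjusted p = 0.899). Gjb6, connexin 30 (chr14:57742140-57752448, minus strand), held 13.1, 14.5 and 20.8 and 9.20, 12.0 and 13.2 RPKM (log2 fold change 0.45 ± 0.13 (SE), adjusted p = 0.950). Both genes overlapped between the groups at the edge of their ranges. Ppp1r3c, which targets protein phosphatase 1 to glycogen, held 14.7, 17.0 and 18.9 RPKM after cocaine and 13.7, 14.8 and 15.8 after saline (0.22 ± 0.074), and Plcd4, a phospholipase C, held 2.92, 3.07 and 3.94 and 2.65, 2.83 and 3.09 (0.23 ± 0.089). Cocaine libraries 5 and 6 held 20.8 and 20.1 RPKM of Gjb6 and 3.94 and 3.88 of Plcd4. The other cocaine libraries held at most 15.0 and 3.08. Cocaine library 5 also held 11.3 RPKM of Agt and 28.2 of Itih3, where saline libraries reached 6.74 and 15.1. Leaving out 1 library at a time gave log2 fold changes of 0.36 to 0.50 for Gjb6 and 0.17 to 0.26 for Plcd4. The median of the set was 0.040, where that of all genes was -0.0012. Gfap, Aqp4, Aldh1l1, Slc1a2 and Gja1 lay at -0.10 ± 0.31, -0.012 ± 0.16, 0.039 ± 0.069, 0.15 ± 0.12 and 0.031 ± 0.057.

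The PFC at 1 day of abstinence gave 2 members with higher and 1 with lower values at an unadjusted p under 0.05 (5.26% and 2.63%, beside 1.67% and 2.11% of 14427 genes). The higher ones were Sdc4 and Gjb6, which were also among the higher ones in the NAc. Both regions may come from the same mice, so the 2 results may not be independent. Sdc4 held 16.5, 18.0 and 23.1 RPKM after cocaine and 13.2, 14.8 and 16.8 after saline, with 6 of 6 cocaine libraries above the saline mean (log2 fold change 0.32 ± 0.087 (SE), adjusted p = 0.913). Gjb6 held 20.1, 23.9 and 31.2 and 18.5, 21.0 and 25.3 RPKM, with 5 of 6 above (log2 fold change 0.24 ± 0.10 (SE), adjusted p = 0.913). Agt, at its lowest level of the 3 regions here, held 0.918, 1.05 and 1.22 RPKM after cocaine and 0.937, 1.37 and 1.79 after saline (log2 fold change -0.34 ± 0.14 (SE), adjusted p = 0.913). The groups overlapped for all 3 genes. Gfap, Aqp4, Aldh1l1, Slc1a2 and Gja1 lay at -0.10 ± 0.23, -0.093 ± 0.13, -0.090 ± 0.10, 0.016 ± 0.063 and -0.00089 ± 0.087, and the median of the set was -0.021, beside -0.011 over all genes. Without saline library 4, 5 members passed, 4 of them lower, beside 4.53% of all genes.

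Glucocorticoid-induced genes had higher values in the same tables: 9 of 15 had higher values after cocaine at an unadjusted p under 0.05 in the NAc (307 to 429.8 against 242 to 307 RPKM) and 11 of 15 in the PFC (321 to 436 against 264 to 333). Their part in the values of Sdc4 and Gjb6 was not tested. In the VTA at 1 day, Gjb6 had 36.0, 55.7 and 117 RPKM after cocaine and 34.8, 38.4 and 48.7 after saline (log2 fold change 0.53 ± 0.25 (SE), adjusted p = 0.318), and Sdc4 lay at 0.029 ± 0.11. Without cocaine libraries 3 and 6, Gjb6 lay at 0.16 and Sdc4 at -0.084.

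Whether the effect of cocaine changed between 1 and 28 days was tested in the NAc, where both times have counts. None of the 38 genes was called, 3 of 16612 genes were (0.0181%), and 1 member, Sdc4, had an unadjusted p under 0.05, beside 5.27% of all genes. DESeq2 called no member either. For Sdc4 the log2 effect at 28 days minus that at 1 day was -0.35 ± 0.11 (edgeR, adjusted p = 0.832), with -0.047 ± 0.068 at 28 days on its own.

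In the NAc at 28 days of abstinence, 3 members had higher values after cocaine at an unadjusted p under 0.05 and 0 lower values (7.89% higher, beside 3.34% higher and 3.42% lower of 16295 genes). The log2 fold change was above 0 for 30 of 38 genes, with a median of 0.073. Of all genes, 52.0% were above 0, with a median of 0.0045. Plcd4 held 2.71, 2.96 and 3.37 RPKM after cocaine and 2.04, 2.54 and 2.79 after saline (log2 fold change 0.24 ± 0.078 (SE), adjusted p = 0.596), and Slc7a10 held 11.5, 14.6 and 16.5 and 10.1, 11.3 and 15.1 (log2 fold change 0.27 ± 0.094 (SE), adjusted p = 0.630). Itih3 held 4.90, 9.07 and 11.2 RPKM after cocaine and 3.67, 5.12 and 9.15 after saline (log2 fold change 0.52 ± 0.23 (SE), adjusted p = 0.693). All 3 genes overlapped between the groups. The counts depended on saline library 1, which held 33.4 RPKM of Gfap and 28.8 of Fabp7, a fatty acid binding protein, against at most 15.1 and 11.6 in the other 5 saline libraries. Without it, 13 members had an unadjusted p under 0.05, beside 9.12% of all genes, and all 13 were higher after cocaine. Fabp7 was then called (0.82 ± 0.11, edgeR adjusted p = 0.0319), beside 0.0122% of all genes. With all libraries Fabp7 lay at 0.46 ± 0.24 (adjusted p = 0.768). Leaving out cocaine library 2 gave 11 members, beside 8.01% of all genes. Leaving out cocaine library 3 or 5 or saline library 6 gave 5 members, beside 6.29%, 5.71% and 5.42%, and saline library 2 gave 6, beside 8.07%. Gfap, Aqp4, Aldh1l1, Slc1a2 and Gja1 lay at 0.087 ± 0.27, 0.054 ± 0.092, 0.11 ± 0.062, -0.070 ± 0.065 and 0.16 ± 0.081.

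In the PFC at 28 days of abstinence, 3 members had higher and 1 lower values after cocaine at an unadjusted p under 0.05 (7.89% and 2.63%, beside 2.69% and 2.97% of 16340 genes). The log2 fold change was above 0 for 33 of 38 genes, with a median of 0.077. Of all genes, 50.1% were above 0, with a median of 0.00042. Chrdl1 held 4.52, 4.93 and 5.35 RPKM after cocaine and 2.77, 3.68 and 4.33 after saline. The groups did not overlap, as for 0.233% of all genes tested (log2 fold change 0.41 ± 0.093 (SE), adjusted p = 0.842). Dio2 held 10.3, 11.8 and 14.1 RPKM after cocaine and 7.20, 9.26 and 11.2 after saline (log2 fold change 0.36 ± 0.10 (SE), adjusted p = 0.842), with 6 of 6 cocaine libraries above the saline mean. Fabp7 (0.25 ± 0.11) and Mt1 (-0.21 ± 0.086) were the other 2. Mt1 held 150.4, 168 and 181 RPKM after cocaine and 162, 189 and 234 after saline, with no cocaine library above the saline mean.

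In the same table, striatal neuron genes had lower values after cocaine in 7 of 9 tested genes, with 102 to 131 RPKM in cocaine and 102 to 1398 in saline libraries. Without saline library 4, which held the highest of these values, 4 members had higher and 0 lower values at an unadjusted p under 0.05, beside 2.33% and 2.26% of 16361 genes, the median was 0.10, and Chrdl1 lay at 0.34 and Mt1 at -0.15 on the log2 scale. Leaving out cocaine library 1 or 2 gave 2 members, beside 5.56% and 4.27% of all genes, cocaine library 5 gave 9, beside 6.31%, and saline library 3 gave 7, beside 6.82%. Gfap, Aqp4, Aldh1l1, Slc1a2 and Gja1 lay at 0.042 ± 0.23, 0.14 ± 0.10, 0.032 ± 0.082, 0.14 ± 0.077 and 0.11 ± 0.065. Without saline library 4, Gfap lay at -0.071 and Aldh1l1 at 0.062.

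The summed level of the 38 genes overlapped between cocaine and saline in all 6 tables. It ran from 2106 to 2276 RPKM after cocaine and from 1914 to 2282 after saline in the NAc at 1 day, and from 2095 to 2542 and 2172 to 2675 at 28 days. In the VTA the ranges were 2980.5 to 3942 and 3408 to 4209 at 1 day, and 3517 to 4513 and 3778 to 5261 at 28 days. The VTA libraries of either time lay above all libraries of the other regions. In the PFC the ranges were 1853 to 2257 and 1815 to 2437 at 1 day, and 2174 to 2483 and 2009.7 to 2461 at 28 days. The mean of the 38 genes on the log2 scale overlapped between the groups in each table as well.

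**Figure D5:**
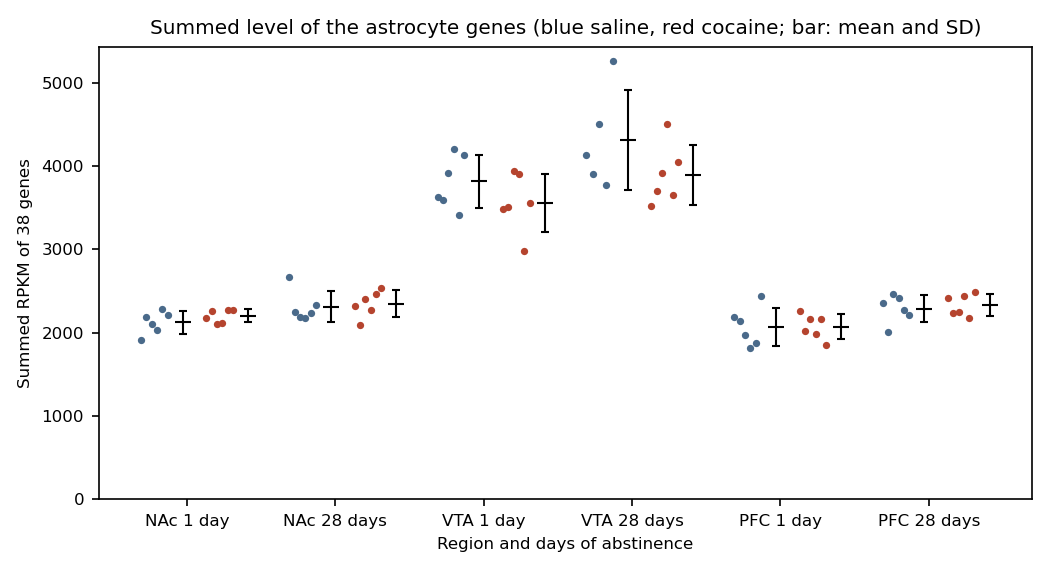
Summed RPKM of the 38 astrocyte genes (linear scale, from 0) in each library, by region and days of abstinence, with the mean and SD beside the points; blue is saline and red is cocaine. The VTA libraries lie between 2980.5 and 5261, the other regions at or below 2675, and the treatments overlap in every table.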

How the data were processed

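Per the labels and the study's methods, total RNA of micro-punches was sequenced, and reads were aligned to mm9; the submitters' processing notes name STAR 2.4.1d, edgeR and DESeq2, and the counting tool is not given in the sources used here. The authors deposited raw counts per gene for the NAc at 1 day and for all regions at 28 days, and RPKM for the VTA and PFC at 1 day. The tables hold 30 further columns of per-library values that were not used. Counts were tested with edgeR 4.0.16 (TMM, filterByExpr with a minimum count of 10, quasi-likelihood test), and RPKM with limma 3.58.1 (variance trend) on log2(RPKM + 0.1), keeping genes whose mean reached 0.5 RPKM. All p-values were adjusted over all genes tested. Regions were compared in 1 edgeR fit of the 35 libraries of 28 days. RPKM of the count tables were computed with the gene lengths that the deposited RPKM imply, which matched for 98.7% of 22380 genes between both RPKM tables (within 0.001). Alternatives were DESeq2 1.42.0, its size factors, other filters and a pseudocount of 1 RPKM, reads recovered from RPKM, a replicate block and leaving out each library. The fits were tested on simulated data.

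Members and marker lists were chosen with earlier results of these data known. The text names the defining markers (Gfap, Aqp4, Aldh1l1, Slc1a2 and Gja1), the members with the smallest p per comparison, up to 6 with an unadjusted p under 0.05, and the 5 with the largest difference in each direction per pair of regions. The other members named between regions, the members past the sixth in the VTA at 1 day, and Gjb6, Sdc4 and Fabp7 in further tables were chosen after their values were seen. No source says that replicates are separate animals, so p-values measure the spread between these libraries. Depth was 20971967 to 49700932 reads on genes per library.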

Additional observations from a re-analysis of the deposited data

Results flagged for a closer look

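Single libraries stood far from the other libraries of their group in 7 of the 120 sets of values checked (a gene or the mean of the set in 1 group), where chance sets apart about 1 in 20. In the NAc at 28 days these were Aldh1l1 in cocaine library 2 (12.1 RPKM, in a group of 12.1, 14.0, 14.2, 14.3, 14.3 and 15.1) and Gfap in saline library 1 (33.4 RPKM, in a group of 9.17, 12.0, 12.4, 14.2, 15.1 and 33.4). In the VTA at 1 day, cocaine library 6 was far from the others for Cldn10 (12.8 RPKM, group 12.8, 16.9, 17.0, 17.1, 18.0 and 18.7) and for Slc1a2 (118 RPKM, group 118, 154, 155, 161, 163 and 164). Saline library 4 of that table stood apart for Slc6a11 (383 RPKM, group 257, 266, 289.8, 297, 300.3 and 383). In the VTA at 28 days, Slc1a2 in cocaine library 1 (107 RPKM, group 107, 129, 131, 134, 134 and 141) and Sdc4 in saline library 5 (59.4 RPKM, group 35.6, 37.8, 38.4, 39.7 and 59.4) were far from the rest.

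The effect of cocaine on Sdc4 in the NAc differed between 28 days and 1 day by -0.35 on the log2 scale at an unadjusted p of 0.00554, which did not pass after adjustment (edgeR, adjusted p = 0.832). Sdc4 was higher than the saline mean in 6 of 6 cocaine libraries at 1 day and in 2 of 6 at 28 days.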

How the results depend on the processing

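The counts of astrocyte genes that differed between regions stayed within 1.5 times their value under every alternative run (12 to 16 for the NAc against the PFC, 32 to 38 for the other pairs, leaving out each library included). The count of 0 called genes after cocaine was also 0 under DESeq2, DESeq2's size factors and no filter in the 4 tables of counts. In the VTA at 1 day it moved: 1 member was called by limma without the variance trend (Chrdl1, adjusted p = 0.0301), 2 by edgeR and 8 by DESeq2 on recovered reads, and 10 at an adjusted p under 0.25. The share of all genes was 0.186%, 0.341%, 4.31% and 8.7% in the same order. Recovered reads, limma without the trend and the fits without libraries that stood apart were chosen after seeing the data. Without those libraries, 3 members in place of 5 had an unadjusted p under 0.05 in the VTA at 28 days. The cause of these differences was not tested.

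Replicate numbers of cocaine and saline libraries at 1 day were not used as pairs in the main fits. The correlation of same-numbered deviations was over 0.1 in 3 of 6 pairs in the NAc, 4 in the VTA and 0 in the PFC. It ran from -0.57 to 0.70, -0.27 to 0.45 and -0.16 to 0.072. Whether a number stands for a shared batch or order was not tested. With the replicate number as a block, 1 member was called in the VTA at 1 day (Gja1, limma adjusted p = 0.0477), beside 0.399% of all genes. In the NAc and PFC 0 members were called. In the regions of 1 day fitted with the block, the NAc against the PFC gave Aldh1l1 at -0.21 and Mt1 at 0.47, past the threshold no longer (edgeR adjusted p = 0.0548 and 0.0505). No paired analysis was possible at 28 days because the columns carry no replicate numbers of the labels.

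Leaving out 1 library at a time gave 0 to 1 called members in the NAc at 28 days (Fabp7 without saline library 1) and 0 to 1 in the VTA at 1 day (Chrdl1 without cocaine library 6). Those fits called 0.0122% and 0.435% of all genes. The count at an unadjusted p under 0.05 ran from 2 to 13 in the NAc, 3 to 7 in the VTA and 2 to 9 in the PFC at 28 days, and from 2 to 5 in the PFC at 1 day. The count of 7 in the VTA came without saline library 1, where 21.8% of all genes passed. Defining markers with small differences changed sign. Aldh1l1 ran from -0.0020 to 0.062 in the NAc at 1 day, -0.068 to 0.052 and -0.053 to 0.079 in the VTA at 1 and 28 days, and -0.033 to 0.069 in the PFC at 28 days. Aqp4 ran from -0.10 to 0.071 and -0.00086 to 0.11 in the NAc, and -0.15 to 0.0078 in the PFC at 1 day. Gfap ran from -0.31 to 0.072 and -0.031 to 0.42 in the NAc, and -0.28 to 0.013 and -0.14 to 0.22 in the PFC. Gja1 ran from -0.036 to 0.060 in the PFC at 1 day and -0.12 to 0.080 in the VTA at 28 days, and Slc1a2 from -0.017 to 0.049 in the PFC at 1 day. Signs also changed without the libraries that stood apart for Aqp4 in the VTA at 1 day (0.045), Gja1 in the VTA at 28 days (0.092) and Gfap in the PFC at 28 days (-0.071). Aldh1l1 in the VTA at 28 days lay at 0.0040 by DESeq2, 0.0039 with its size factors and 0.013 with no filter, and Gja1 in the PFC at 1 day at 0.015 by edgeR and DESeq2 on recovered reads. Precision is limited by 5 or 6 libraries a group and, for Chrdl1 in the VTA at 1 day, by a level of at most 1.29 RPKM, where the 0.1 added to RPKM understates a fold change.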

Other observations

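Some genes of reactive astrocytes, a list that shares no gene with the 38, differed after cocaine in the VTA at an unadjusted p under 0.05. At 1 day, 9 of 24 tested genes had higher values, beside 11.2% of all genes. At 28 days, 8 of 29 had lower values, beside 6.39% of all genes. The summed level ran from 105 to 367 RPKM after cocaine and 108 to 167 after saline at 1 day, and from 111 to 219 and 134 to 408 at 28 days. Without cocaine libraries 3 and 6, 1 of 23 genes had higher values at 1 day, beside 9.95% of all genes. Without saline libraries 4 and 5, 1 of 29 had lower values at 28 days, beside 3.48%.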
